A study of Homo sapiens with 12 samples.

Results

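Double-strand break and Fanconi repair genes were followed by RNA sequencing in 12 libraries of A549, an established line from a human lung adenocarcinoma. The 39 members were taken by symbol, and each matched 1 of the 60617 Ensembl genes in the count table. The 4 groups of 3 libraries were unmodified cells (WT), cells with the genotype label YTHDF1 knockout (YTHDF1 KO), cells with ARID1A knockdown by small interfering RNA (siARID1A), and YTHDF1 knockout cells with ARID1A knockdown (the combined group). YTHDF1 binds N6-methyladenosine in RNA, and ARID1A is a DNA-binding subunit of the SWI/SNF chromatin remodeller. The YTHDF1 arm is a knockout in the genotype field and the design text but a knockdown in the titles. The labels name neither a clone nor a pool, nor a control small interfering RNA. ARID1A loss and transfection therefore cannot be told apart where siARID1A or the combined group is set against WT or YTHDF1 KO. The cells carry no other labelled change, and every group is the same line in the same medium. The design text states a comparison of transcriptomes among the 4 groups, and the series title names R-loops, which are RNA-DNA hybrids that can lead to broken DNA.

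A break in both DNA strands can be rejoined directly by end joining, or it can be cut back to single-stranded DNA and copied from the sister chromatid by homologous recombination. The kinases ATM and ATR signal the break or the stalled fork through CHEK2 and CHEK1 and hold the cell cycle, while BRCA1, BRCA2 and their partners prepare the cut-back end for copying. The Fanconi pathway handles crosslinks between the strands: a core complex attaches ubiquitin to FANCD2 and FANCI, and nucleases then unhook the crosslink. Many genes of recombination and the Fanconi pathway are transcribed most in cells that copy their DNA, so their levels in a culture depend on how many cells are in S phase.

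Library totals ran from 30220717 to 45042635 counts, and every member had at least 108 counts in every library. Levels are counts scaled to the TMM-adjusted library total (CPM), in the order of replicates 1 to 3, and changes are log2 fold changes with the standard error (SE) from the replicate spread. A change is called where edgeR's quasi-likelihood test has an adjusted p under 0.05 over the 18524 genes tested. YTHDF1 stood at 88.1 ± 2.56 CPM (SD, n = 3) in WT, 24.8 ± 2.08 with the knockout, 97.8 ± 4.69 with siARID1A and 30.9 ± 1.1 with both. ARID1A stood at 164 ± 14.1, 161 ± 11.9, 42.5 ± 2.12 and 54.2 ± 6.5 CPM (SD, n = 3) in the same order. The keratin and adhesion markers of epithelium summed to 3531 CPM or more in every library, the 5 blood markers to at most 0.928 CPM, and of 5 alveolar markers only ABCA3 and of 5 fibroblast and endothelial markers only COL1A1 reached a group mean of 1 CPM. The epithelial sum was 7786 to 9942 CPM in WT, 3531 to 3801 in YTHDF1 KO, 6900 to 8346 in siARID1A and 3891 to 4198 with both, and its part in the members' changes was not tested. In YTHDF1 KO 1 of the 5 epithelial markers had a mean under 1 CPM, against 0 in each other group. WT replicate 2 stood apart, with 4.85% of counts on mitochondrial genes against 6.81% to 8.23% in the other 11 libraries. Genes of chromosome 2 had a median of -0.41 in YTHDF1 KO and -0.42 in the combined group against WT, and those of chromosome 9 had -0.36, -0.41 and -0.38 in YTHDF1 KO, siARID1A and the combined group. In the combined group against YTHDF1 KO the medians were 0.013 on chromosome 2 and 0.0058 on chromosome 9. Against siARID1A the chromosome 9 medians were 0.041 in YTHDF1 KO and 0.017 in the combined group. WT thus stood apart from all other groups on chromosome 9. In siARID1A against WT and in the interaction, that shift and the silencing cannot be told apart. In YTHDF1 KO and the combined group against WT, the chromosome 2 and 9 shifts and the labelled changes cannot be told apart either. BARD1, FANCL and RIF1 lie on chromosome 2, and FANCC and FANCG on chromosome 9. No label says that libraries of 1 group came from separate cultures beyond calling them biological replicates. In bulk RNA, fewer cells in S phase and less of a transcript per cell cannot be told apart.

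Most of these genes were lower in siARID1A than in WT. In the combined group against YTHDF1 KO 15.4% were lower, which is near the 10.9% of all genes. In siARID1A against WT, 26 of 39 members fell and 4 rose, with a median of -0.34 against -0.01 over all genes tested, of which 23.0% fell and 22.1% rose (45.2% changed). In the combined group against YTHDF1 KO, which is ARID1A silencing in knockout cells, 6 members fell and 2 rose, with a median of -0.09 (all genes 10.9% and 12.5%, 23.4% in either direction, median 0.01). The silencing was not equal, since ARID1A itself changed by -1.57 there and by -1.95 in siARID1A against WT. YTHDF1 KO against WT went in both directions, with 9 members higher and 7 lower and a median of -0.06. These shares, 9 and 7 of 39, stood beside 19.6% and 20.8% of all genes, and 16 of 39 beside 40.4%, so the count is near the background and is no result about the members. The combined group against WT had 9 higher and 14 lower, with a median of -0.10 (all genes 25.6% and 25.9%, 51.5% in either direction). Of the 26 members that fell in siARID1A, 14 were also lower in the combined group against WT, 10 were not called and 2 were higher. The 3 comparisons with WT share the WT libraries. Without WT replicate 2 the counts were 7 higher and 6 lower in YTHDF1 KO, 3 and 24 in siARID1A, and 8 and 13 in the combined group. Scaled to library totals alone, which moved the median of all genes to 0.13 in the combined group, the combined group against WT had 14 higher and 11 lower, YTHDF1 KO 10 and 6, siARID1A 4 and 22, and the combined group against YTHDF1 KO 2 and 2.

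**Figure D1:**
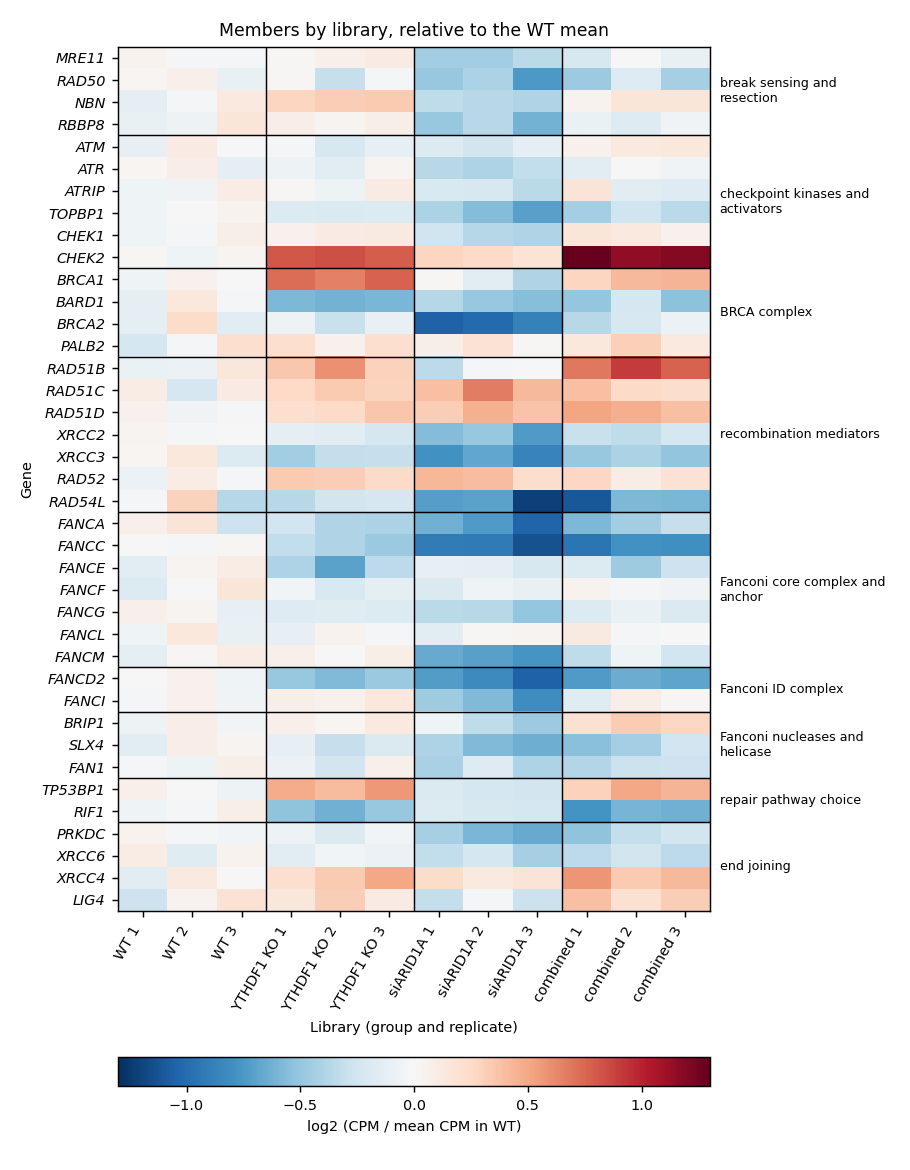
Each row is a member, each column a library, and the colour is log2 of CPM over the mean CPM in WT, with members grouped by role. The siARID1A columns are below WT for 33 of 39 members by the fitted fold change, CHEK2 is highest in the combined group, and RAD51B, RAD51C and RAD51D stand above WT in the combined columns.

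Changes were modest in size. The largest was 0.81 on the log2 scale with YTHDF1 KO, 0.98 with siARID1A and 1.26 with both, and CHEK2 in the combined group was the only 1 of the 39 members past 1 in a comparison with WT. Lower in all 3 comparisons with WT were 6 members (BARD1, XRCC3, FANCA, FANCC, FANCD2 and RIF1), and 3 were higher in all 3 (CHEK2, RAD51C and RAD51D). Of all genes tested, 9.61% were lower and 9.40% higher in all 3, which share the WT libraries, and with the median shift of each gene's 50 nearest tested neighbours removed (the neighbour shift), BARD1, FANCC and RAD51C each lost calls here. ATRIP, PALB2, FANCF and FANCL were called in none of the 7 comparisons. Members whose libraries did not overlap between groups numbered 5 higher and 26 lower in siARID1A against WT (all genes 24.7% and 25.5%). In YTHDF1 KO they were 9 and 10 (24.1% and 24.5%), and in the combined group 9 and 15 (28.2% and 27.9%).

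Per kilobase of exon, a pair of end-joining genes stood above the rest. XRCC6, the Ku70 subunit that binds broken ends, had 196 CPM per kb in WT and PRKDC, the kinase that Ku recruits, had 59.6. FANCI followed with 24.3, NBN with 18.2, FANCG with 15.8 and TOPBP1 with 15.2. The median of the 39 members was 5.09 CPM per kb. At the low end stood FANCM (2.32), RAD51D (2.17), RAD50 (1.32) and RAD51B (0.553). Exon lengths are the union of all annotated exons, which lowers the value of genes with many long minor isoforms. On GRCh38 (GENCODE 29), BRCA2 lies at chr13:32315474-32400266, CHEK2 at chr22:28687743-28742422, BRCA1 at chr17:43044295-43170245, FANCD2 at chr3:10026414-10101930, FANCC at chr9:95099054-95426796 and RIF1 at chr2:151409883-151508013. Exons of RAD50, RBBP8, ATRIP, CHEK1, BRCA1, RAD51D and RAD52 overlap another gene on the same strand, and those of CHEK2, RIF1, FANCD2 and ATM, among others, overlap one on the other strand, so their counts are uncertain where reads were shared.

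The MRE11, RAD50 and NBN proteins form the complex that first binds a break, and RBBP8, also called CtIP, starts the cutting back with them. All 4 genes fell with siARID1A in WT cells, beside 23.0% of all genes. MRE11, the nuclease, stood at 38.8, 36.9 and 37.3 CPM in WT, 38.2, 39.5 and 40.6 with YTHDF1 KO, 27.6, 27.6 and 29.6 with siARID1A and 32.6, 37.5 and 35.3 with both. The siARID1A libraries lay below every other library, a fall of 0.41 (SE 0.040, adjusted p = 0.000123) against WT. RAD50, the coiled-coil tether, stood at 13.1, 13.5 and 12.1 CPM in WT, 13.1, 10.5 and 12.8 with YTHDF1 KO, 9.18, 9.74 and 7.71 with siARID1A and 9.31, 11.5 and 9.6 with both. It fell by 0.54 (SE 0.112, adjusted p = 0.00106) in siARID1A and by 0.35 (SE 0.106, adjusted p = 0.0214) in the combined group, and the latter call was lost without WT replicate 1 or 2 or combined replicate 1 or 3 (adjusted p from 0.051 to 0.0908). RBBP8 fell by 0.48 (SE 0.108, adjusted p = 4.53e-05) in siARID1A and stood at -0.10 in the combined group (adjusted p = 0.333). NBN, which brings ATM to the complex, behaved differently in the knockout, at 103, 111 and 122 CPM in WT, 136, 139.9 and 142 with YTHDF1 KO, 89.2, 87.2 and 85.6 with siARID1A and 116, 125 and 125 with both. It rose by 0.31 (SE 0.0721, adjusted p = 0.000614) in YTHDF1 KO and fell by 0.36 (SE 0.0722, adjusted p = 0.000129) in siARID1A, with YTHDF1 KO above WT and siARID1A below WT in every library. The knockout exceeded siARID1A by 0.67 (SE 0.0241, adjusted p = 1.48e-08). In the combined group NBN stood at 0.12 from WT (adjusted p = 0.141, or 0.0275 without WT replicate 3) and -0.19 from YTHDF1 KO (adjusted p = 0.0447), and this last call was lost without YTHDF1 KO replicate 1, 2 or 3, siARID1A replicate 1 or combined replicate 1, 2 or 3 (adjusted p from 0.0555 to 0.187).

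CHEK2, the kinase that ATM activates, was the member with the largest change. It stood at 17.1, 16.3 and 17.3 CPM in WT, 29.6, 30.2 and 29.2 with YTHDF1 KO, 20.6, 20.01 and 19.1 with siARID1A and 45.4, 37.5 and 38.8 with both. The groups do not overlap and their order was WT, siARID1A, YTHDF1 KO and combined. The rise was 0.81 (SE 0.0306, adjusted p = 4.4e-08) with YTHDF1 KO, 0.24 (SE 0.0419, adjusted p = 0.0362) with siARID1A and 1.26 (SE 0.0889, adjusted p = 1.18e-11) with both. Within the knockout, siARID1A added 0.45 (SE 0.086, adjusted p = 0.000377), and the difference between this and the change in WT cells was 0.21 (SE 0.0957, adjusted p = 0.273), which did not pass. The small rise in siARID1A alone was lost without WT replicate 1 or 2 or siARID1A replicate 1 or 2 (adjusted p from 0.0537 to 0.107), while the other rises held with any library left out.

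Of the other 5 checkpoint genes, 4 fell in siARID1A and 1, TOPBP1, in the combined group, against WT. Of all genes, 23.0% and 25.9% fell there, so the combined count is near the background. CHEK1, the kinase downstream of ATR, stood at 50.4, 51.2 and 55.1 CPM in WT, 54.2, 56.4 and 56.8 with YTHDF1 KO, 43.6, 40.5 and 39.9 with siARID1A and 58.4, 57.2 and 54.2 with both. Its siARID1A libraries lay below all others, a fall of 0.34 (SE 0.0556, adjusted p = 0.00041), and the combined group stood 0.45 above siARID1A (adjusted p = 1.63e-05). ATR, which senses single-stranded DNA at stalled forks, stood at 64.6, 67.7 and 58.5 CPM in WT, 60.6, 57.3 and 65.2 with YTHDF1 KO, 49.7, 48.2 and 50.8 with siARID1A and 57.3, 63.98 and 61.5 with both. It fell by 0.36 (SE 0.0662, adjusted p = 0.000359) in siARID1A and did not overlap the other groups there. TOPBP1, the activator of ATR, stood at 107, 112 and 115 CPM in WT, 98.5, 97.8 and 98.3 with YTHDF1 KO, 83.6, 75.3 and 68.4 with siARID1A and 81.7, 92.9 and 87.01 with both. It fell by 0.55 (SE 0.089, adjusted p = 1.11e-06) in siARID1A and by 0.35 (SE 0.0615, adjusted p = 0.000274) in the combined group, and stood at -0.18 in YTHDF1 KO (adjusted p = 0.0517). That last value passed when WT replicate 1, siARID1A replicate 1 or 3, or combined replicate 1 was left out (adjusted p from 0.0357 to 0.0498). ATM stood at 61.6, 71.9 and 66.1 CPM in WT, 65.3, 57.7 and 61.7 with YTHDF1 KO, 58.6, 56.2 and 61.3 with siARID1A and 69.3, 72.4 and 72.9 with both. Its fall of 0.18 (SE 0.0736, adjusted p = 0.0493) in siARID1A was borderline and was lost without WT replicate 2 or 3, knockout replicate 1, 2 or 3, siARID1A replicate 1 or 2 or combined replicate 1, 2 or 3 (adjusted p from 0.0517 to 0.319). ATRIP, the partner of ATR, kept between 11.3 and 16.2 CPM over the 12 libraries.

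BRCA1 and BARD1 encode the partners of 1 ubiquitin ligase, and in YTHDF1 KO BRCA1 rose and BARD1 fell. BRCA1 stood at 82.6, 89.5 and 86.2 CPM in WT, 142, 135 and 146 with YTHDF1 KO, 86.9, 78.2 and 65.6 with siARID1A and 104, 116 and 117 with both. Every YTHDF1 KO library lay above every other library, with a rise of 0.71 (SE 0.0463, adjusted p = 9.84e-08), and the combined group lay between YTHDF1 KO and WT, with a rise of 0.39 (SE 0.0628, adjusted p = 0.000314) over WT. siARID1A overlapped WT (-0.16, adjusted p = 0.109, or 0.0171 without siARID1A replicate 1), and within the knockout it lowered BRCA1 by 0.33 (SE 0.0622, adjusted p = 0.00402). BARD1 stood at 21.2, 25.4 and 22.9 CPM in WT, 15.4, 15.1 and 15.3 with YTHDF1 KO, 17.9, 16.5 and 15.8 with siARID1A and 16.3, 19.7 and 15.99 with both. All 9 libraries outside WT lay below WT, with falls of 0.60 (SE 0.0756, adjusted p = 3.79e-05) with YTHDF1 KO, 0.47 (SE 0.0918, adjusted p = 0.000554) with siARID1A and 0.42 (SE 0.121, adjusted p = 0.00137) with both. With the shift of its chromosomal neighbours removed, BARD1 was no longer called in YTHDF1 KO (adjusted p = 0.995) or the combined group (0.15, adjusted p = 0.287), BRCA1 was no longer called in the combined group (0.00, adjusted p = 0.974), and BRCA1 was called lower in siARID1A (-0.46, adjusted p = 8.39e-05).

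BRCA2, which acts on single-stranded DNA in homologous recombination, fell with siARID1A in WT cells and was not called against WT in the other groups. It stood at 28.8, 36.97 and 28.5 CPM in WT, 30.1, 25.7 and 29.4 with YTHDF1 KO, 15.2, 15.6 and 17.1 with siARID1A and 24.5, 27.2 and 29.8 with both. The siARID1A libraries lay below the other 9 libraries, with a fall of 0.98 (SE 0.133, adjusted p = 6.71e-08). In the combined group BRCA2 stood at -0.21 from WT (adjusted p = 0.0932, or 0.0426 without WT replicate 3) and stood higher by 0.77 (SE 0.0969, adjusted p = 3.51e-06) than in siARID1A. PALB2, which joins BRCA1 to BRCA2, was not called in a comparison and kept between 21.2 and 30.6 CPM.

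**Figure D2:**
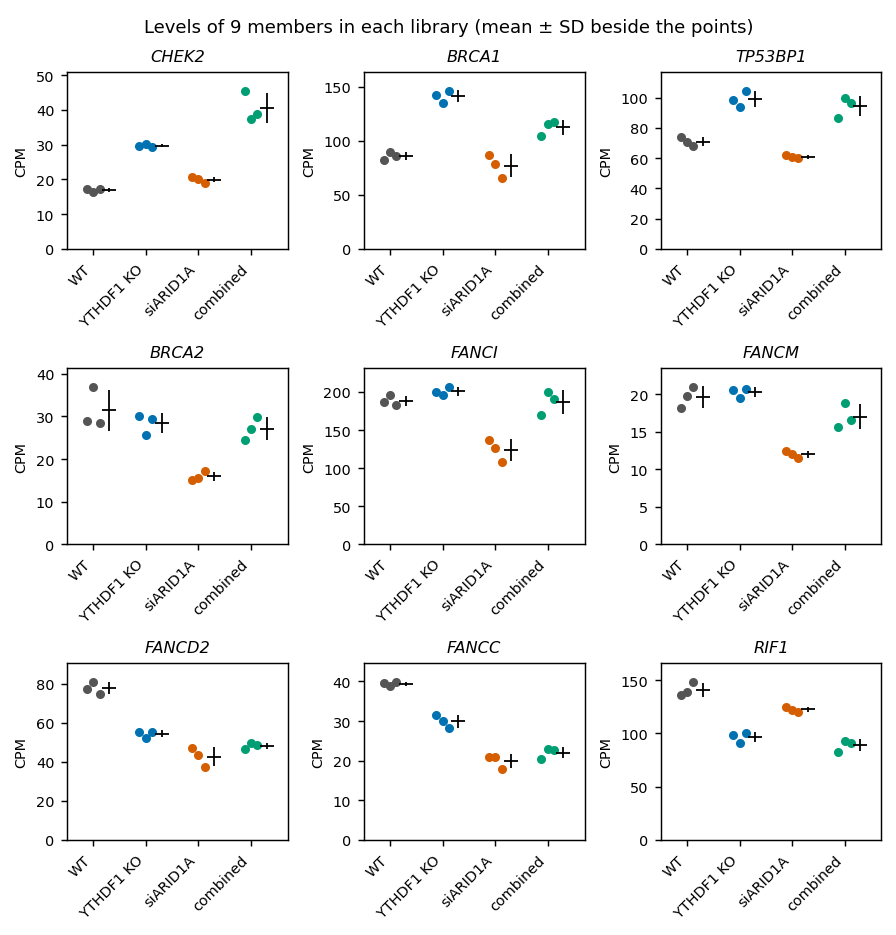
CPM of 9 members in each library (points, 3 per group) with the mean and SD of each group (bar beside the points), axes starting at 0. BRCA2, FANCI and FANCM are lowest in siARID1A and higher in the combined group, while FANCD2, FANCC and RIF1 stay below WT in the combined group and CHEK2, BRCA1 and TP53BP1 stay above it.

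The recombination mediators RAD51B, RAD51C, RAD51D, XRCC2 and XRCC3, which act on the cut-back end, split in 2 directions. RAD51C and RAD51D were called higher in all 3 comparisons with WT. RAD51C stood at 35.6, 28.5 and 35.7 CPM in WT, 39.9, 42.1 and 40.6 with YTHDF1 KO, 43.5, 52.8 and 44.4 with siARID1A and 43.5, 39.5 and 39.01 with both, with rises of 0.50 (SE 0.139, adjusted p = 9.45e-05) in siARID1A, 0.30 (SE 0.109, adjusted p = 0.0117) in YTHDF1 KO and 0.29 (SE 0.118, adjusted p = 0.0104) in the combined group. The YTHDF1 KO call was lost without WT replicate 2 (adjusted p = 0.0551) and the combined call without WT replicate 2 or combined replicate 1 (adjusted p from 0.0576 to 0.059), and WT replicate 2 was the lowest of the 12. With the neighbour shift removed RAD51C stood at 0.08 (adjusted p = 0.574) in YTHDF1 KO and 0.14 (adjusted p = 0.258) in the combined group. RAD51D stood at 25.5, 23.7 and 24.3 CPM in WT, 28.4, 29.1 and 31.4 with YTHDF1 KO, 30.7, 33.7 and 31.7 with siARID1A and 34.9, 33.9 and 32.1 with both. Its rises were 0.27 (SE 0.0535, adjusted p = 0.00894), 0.38 (SE 0.0507, adjusted p = 0.00042) and 0.46 (SE 0.0471, adjusted p = 4.22e-05) in the same 3 comparisons in the order YTHDF1 KO, siARID1A and combined, and the first was lost without YTHDF1 KO replicate 3 (adjusted p = 0.0597). RAD51B, the least abundant member, stood at 3.9, 3.93 and 4.58 CPM in WT, 5.26, 6.24 and 5.11 with YTHDF1 KO, 3.26, 4.1 and 4.17 with siARID1A and 6.65, 7.78 and 7.03 with both. It rose by 0.79 (SE 0.0999, adjusted p = 0.00013) in the combined group, with no overlap with WT, and by 0.43 (SE 0.116, adjusted p = 0.0328) in YTHDF1 KO, a call lost without WT replicate 1 or 2 or YTHDF1 KO replicate 2 (adjusted p from 0.0674 to 0.159).

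XRCC2 and XRCC3 went down. XRCC2 stood at 47.7, 45.7 and 46.4 CPM in WT, 42.99, 42.1 and 40.1 with YTHDF1 KO, 31.6, 33.01 and 28.1 with siARID1A and 38.03, 37.1 and 39.7 with both. It fell by 0.59 (SE 0.0721, adjusted p = 9.33e-07) in siARID1A and by 0.28 (SE 0.0343, adjusted p = 0.00338) in the combined group, with all siARID1A libraries below all others. XRCC3 stood at 34.9, 37.7 and 30.3 CPM in WT, 25.1, 27.8 and 27.95 with YTHDF1 KO, 19.9, 21.5 and 18.8 with siARID1A and 24.5, 25.7 and 24.1 with both. It fell by 0.35 (SE 0.105, adjusted p = 0.00315), 0.77 (SE 0.107, adjusted p = 2.46e-07) and 0.47 (SE 0.0967, adjusted p = 0.000121) with YTHDF1 KO, siARID1A and both, and no library of these groups reached WT. RAD52, which anneals single strands, stood at 13.8, 15.5 and 14.3 CPM in WT, 18.4, 18.2 and 17.2 with YTHDF1 KO, 19.7, 19.2 and 17.02 with siARID1A and 17.6, 15.5 and 16.5 with both. It rose by 0.36 (SE 0.0818, adjusted p = 0.00473) in siARID1A and by 0.30 (SE 0.0589, adjusted p = 0.0154) in YTHDF1 KO, the latter lost without WT replicate 1 or YTHDF1 KO replicate 1 (adjusted p from 0.0551 to 0.0567). RAD54L, a motor protein of homologous recombination, stood at 15.6, 19.3 and 12.2 CPM in WT, 12.2, 13.3 and 13.5 with YTHDF1 KO, 9.54, 9.71 and 6.77 with siARID1A and 7.34, 10.5 and 10.4 with both. It fell by 0.86 (SE 0.255, adjusted p = 0.000174) in siARID1A and 0.74 (SE 0.255, adjusted p = 0.000584) in the combined group, while WT itself spread widely. Within the knockout it fell by 0.46 (SE 0.174, adjusted p = 0.0432), a call lost without WT replicate 1, knockout replicate 1, 2 or 3, siARID1A replicate 1 or combined replicate 1 or 3 (adjusted p from 0.0502 to 0.214).

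The Fanconi core complex, which carries the ubiquitin ligase activity, had 4 of 7 members lower in siARID1A, beside 23.0% of all genes. FANCA, a scaffold of the core, stood at 69.1, 74.03 and 54.8 CPM in WT, 55.4, 50.2 and 49.7 with YTHDF1 KO, 42.7, 39.7 and 32.02 with siARID1A and 44.02, 48.1 and 53.5 with both. It fell by 0.79 (SE 0.181, adjusted p = 4.61e-06) in siARID1A and 0.44 (SE 0.154, adjusted p = 0.00166) in the combined group. In YTHDF1 KO it fell by 0.35 (SE 0.14, adjusted p = 0.0125), with groups that overlap, and this call was lost without WT replicate 1 or 2 or YTHDF1 KO replicate 2 or 3 (adjusted p from 0.0507 to 0.0755). FANCC on chromosome 9, another core subunit, stood at 39.6, 38.9 and 39.8 CPM in WT, 31.5, 30.1 and 28.3 with YTHDF1 KO, 20.96, 20.8 and 18.02 with siARID1A and 20.5, 22.9 and 22.6 with both. Its fall in YTHDF1 KO was lost with the neighbour shift removed (0.01, adjusted p = 0.95). Its fall of 0.98 (SE 0.0716, adjusted p = 1.85e-09) in siARID1A was the largest among the members there, followed by 0.84 (SE 0.0521, adjusted p = 1.11e-08) in the combined group and 0.39 (SE 0.046, adjusted p = 0.000527) in YTHDF1 KO. FANCG, a further core subunit, stood at 59.8, 58.5 and 53.2 CPM in WT, 51.00, 51.1 and 50.4 with YTHDF1 KO, 44.8, 44.5 and 40.5 with siARID1A and 50.4, 53.7 and 50.3 with both, with a fall of 0.40 (SE 0.0699, adjusted p = 6.77e-05) in siARID1A. FANCM, the translocase that anchors the complex on DNA, stood at 18.1, 19.8 and 21.03 CPM in WT, 20.6, 19.5 and 20.7 with YTHDF1 KO, 12.5, 12.1 and 11.5 with siARID1A and 15.6, 18.9 and 16.5 with both. Its siARID1A libraries lay below the other 9, a fall of 0.71 (SE 0.0704, adjusted p = 3.14e-06), and the combined group stood 0.50 above them (adjusted p = 0.000312).

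FANCE, the subunit that contacts FANCD2, was the 1 core gene that fell in YTHDF1 KO alone among the comparisons with WT, at 7.02, 7.93 and 8.26 CPM in WT, 5.86, 4.76 and 6.09 with YTHDF1 KO, 7.19, 7.08 and 6.68 with siARID1A and 6.83, 5.62 and 6.42 with both. The fall was 0.47 (SE 0.13, adjusted p = 0.00861), lost without YTHDF1 KO replicate 2 (adjusted p = 0.0663). Its change in siARID1A was -0.15 (SE 0.0771, adjusted p = 0.42), and the difference between the knockout and siARID1A did not pass (-0.33, adjusted p = 0.0649). FANCF, an adaptor, and FANCL, the ligase subunit, were called in no comparison, and FANCL on chromosome 2 stood at -0.03 in YTHDF1 KO and 0.03 in the combined group, beside neighbours at -0.24 in the former.

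FANCD2 and FANCI form the clamp that the core complex ubiquitinates, and the 2 genes differed in the knockout. FANCD2 stood at 77.5, 80.7 and 74.7 CPM in WT, 55.2, 52.3 and 55.5 with YTHDF1 KO, 46.9, 43.7 and 37.4 with siARID1A and 46.6, 49.5 and 48.4 with both. All libraries outside WT lay below WT, with falls of 0.52 (SE 0.0421, adjusted p = 6.13e-06) with YTHDF1 KO, 0.86 (SE 0.101, adjusted p = 2.59e-09) with siARID1A and 0.69 (SE 0.0413, adjusted p = 5.28e-08) with both. FANCI stood at 187, 196 and 183 CPM in WT, 199, 196 and 207 with YTHDF1 KO, 137, 127 and 108 with siARID1A and 169, 199.8 and 191 with both. It fell by 0.61 (SE 0.105, adjusted p = 9.01e-07) in siARID1A and stood at 0.09 in YTHDF1 KO (adjusted p = 0.4) and -0.02 in the combined group (adjusted p = 0.887, but -0.24, adjusted p = 0.0291 with the neighbour shift removed). The combined group exceeded siARID1A by 0.59 (SE 0.124, adjusted p = 1.66e-06).

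Among the proteins that act after ubiquitination, BRIP1, a helicase that binds BRCA1, stood at 32.6, 36.4 and 33.4 CPM in WT, 35.8, 34.8 and 37.2 with YTHDF1 KO, 32.8, 27.2 and 24.6 with siARID1A and 39.1, 43.04 and 41.03 with both. It rose by 0.27 (SE 0.0618, adjusted p = 0.0163) in the combined group, a call lost without WT replicate 1 or combined replicate 2 (adjusted p from 0.0589 to 0.0719), and fell by 0.28 (SE 0.13, adjusted p = 0.0172) in siARID1A with overlapping groups, a call lost without WT replicate 2 or siARID1A replicate 2 or 3 (adjusted p from 0.059 to 0.129). SLX4, the scaffold of several nucleases, fell by 0.53 (SE 0.0973, adjusted p = 4.33e-05) in siARID1A and 0.41 (SE 0.109, adjusted p = 0.000605) in the combined group. The nuclease FAN1 fell by 0.32 (SE 0.0895, adjusted p = 0.013) and 0.31 (SE 0.055, adjusted p = 0.0152) in the same groups, and was lost without siARID1A replicate 1 or 3 (adjusted p from 0.0558 to 0.0617) in the first and without combined replicate 1 (adjusted p = 0.0616) in the second.

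TP53BP1 and RIF1 act together to protect ends from being cut back, and in YTHDF1 KO TP53BP1 rose and RIF1 fell. TP53BP1, which binds modified histones around the break, stood at 73.9, 70.6 and 67.8 CPM in WT, 98.7, 93.9 and 104 with YTHDF1 KO, 62.1, 60.5 and 59.9 with siARID1A and 86.8, 100.02 and 96.5 with both. It rose by 0.48 (SE 0.0566, adjusted p = 3.75e-06) in YTHDF1 KO and 0.42 (SE 0.0711, adjusted p = 1.99e-05) in the combined group and fell by 0.22 (SE 0.0393, adjusted p = 0.0136) in siARID1A, where the call was lost without WT replicate 1 (adjusted p = 0.0513) and with the neighbour shift removed. RIF1 on chromosome 2, which TP53BP1 recruits, stood at 136, 139 and 148 CPM in WT, 98.3, 91.4 and 100.1 with YTHDF1 KO, 125, 122 and 120.4 with siARID1A and 82.5, 92.7 and 91.4 with both. The knockout libraries with or without silencing lay below all WT and siARID1A libraries, with falls of 0.55 (SE 0.0549, adjusted p = 3.4e-07) in YTHDF1 KO and 0.67 (SE 0.0647, adjusted p = 9.13e-09) in the combined group. Its fall of 0.20 (SE 0.0409, adjusted p = 0.0165) in siARID1A was lost without WT replicate 3 or siARID1A replicate 3 (adjusted p from 0.0513 to 0.0644). RIF1 was the 1 member lower in YTHDF1 KO than in siARID1A, by 0.34 (SE 0.0432, adjusted p = 0.000164), where 26 members were higher (all genes 22.8% lower and 22.4% higher, 45.2% in either direction). With the neighbour shift removed RIF1 stood at 0.11 (adjusted p = 0.213) in that comparison.

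Of the end-joining genes, the abundant ones fell with siARID1A. PRKDC stood at 950.4, 908 and 899.7 CPM in WT, 876, 808 and 895 with YTHDF1 KO, 680.1, 609.9 and 583 with siARID1A and 642, 742 and 781 with both, and fell by 0.56 (SE 0.0706, adjusted p = 3.86e-06) in siARID1A and 0.35 (SE 0.0882, adjusted p = 0.000785) in the combined group. XRCC6 stood at 688, 578 and 667 CPM in WT, 587, 628 and 611 with YTHDF1 KO, 516, 549.2 and 477 with siARID1A and 510.4, 546 and 508 with both, and fell by 0.33 (SE 0.097, adjusted p = 0.00114) and 0.30 (SE 0.0839, adjusted p = 0.00171). Within the knockout PRKDC fell by 0.25 (SE 0.0958, adjusted p = 0.0245) and XRCC6 by 0.22 (SE 0.0438, adjusted p = 0.0354). These calls were lost without YTHDF1 KO replicate 1 or 3 or combined replicate 1 (adjusted p from 0.0889 to 0.167) for PRKDC and without YTHDF1 KO replicate 1, 2 or 3 or combined replicate 1 or 3 (adjusted p from 0.0576 to 0.129) for XRCC6. XRCC5, the Ku80 partner of XRCC6 and not a member, stood at 546, 496 and 544 CPM in WT, 344, 349.9 and 356 with YTHDF1 KO, 142, 132 and 119.6 with siARID1A and 107, 137 and 119.95 with both, with falls of 2.01 (SE 0.0844, adjusted p = 3.26e-15) in siARID1A and 1.53 (SE 0.105, adjusted p = 1.64e-12) within the knockout. XRCC4 and LIG4 encode the ligase complex that seals the ends. XRCC4 stood at 12.4, 14.9 and 13.8 CPM in WT, 15.9, 17.3 and 19.4 with YTHDF1 KO, 16.1, 14.9 and 15.3 with siARID1A and 20.3, 17.3 and 18.3 with both, with rises of 0.36 (SE 0.114, adjusted p = 0.00855) in YTHDF1 KO, lost without YTHDF1 KO replicate 3 (adjusted p = 0.0701), and 0.44 (SE 0.103, adjusted p = 0.00105) in the combined group. LIG4 rose by 0.30 (SE 0.148, adjusted p = 0.0288) in the combined group, lost without WT replicate 1 or combined replicate 1 or 3 (adjusted p from 0.0685 to 0.19).

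The change with siARID1A differed for 17 members between WT cells and the cells labelled YTHDF1 knockout, which kept part of their YTHDF1 RNA. The measure is the interaction term, which is the log2 change with siARID1A in knockout cells minus that in WT cells. It was above 0 and called for 15 members and below 0 and called for 2, against 8.87% and 8.22% of all genes, and its median was 0.31 against 0.02. The term subtracts the change in siARID1A against WT and shares its libraries, so genes that fell there tend to a term above 0 by construction. All 15 were among the 26 that fell in siARID1A against WT, and 81.6% of all genes with a called term above 0 had fallen there too. Of the 26, 15 had a called term above 0, beside 31.4% of all genes that fell in siARID1A, and 5 fell within the knockout, beside 34.2%. BRCA2 had the largest term at 0.91 (SE 0.171, adjusted p = 0.000104), from -0.98 in WT cells to -0.07 in knockout cells. FANCA went from -0.79 to -0.09 (term 0.70, SE 0.204, adjusted p = 0.00278), FANCD2 from -0.86 to -0.17 (term 0.69, SE 0.108, adjusted p = 7.01e-05), and XRCC3 from -0.77 to -0.12 (term 0.65, SE 0.121, adjusted p = 0.000863). Of the 15 with a called term above 0, BARD1, XRCC3, FANCA, FANCC and FANCD2 were already lower in YTHDF1 KO than in WT. The others, BRCA2 and FANCI among them, were not called in that comparison. The YTHDF1 KO calls of BARD1, FANCA and FANCC did not hold in every setting. BARD1 had a term of 0.65 (SE 0.133, adjusted p = 0.00237) and FANCC of 0.54 (SE 0.0988, adjusted p = 0.00281). With the shift of neighbouring genes removed (the median of the 50 nearest tested genes), the FANCC term was 0.03 (adjusted p = 0.906), RAD51C -0.33 (adjusted p = 0.128), FANCM 0.38 (adjusted p = 0.0829) and ATR 0.31 (adjusted p = 0.0536), while the other 13 terms kept their calls. FANCI (0.50), XRCC2 (0.47), BRIP1 (0.47), FANCM (0.46), FANCG (0.42), ATM (0.40), TOPBP1 (0.38), ATR (0.36) and CHEK1 (0.36) also had called terms above 0. RAD51C (-0.50) and RAD52 (-0.48) had terms below 0, and both rose with siARID1A in WT cells and were not called within the knockout. The FANCM term was lost without WT replicate 3, knockout replicate 2, siARID1A replicate 3 or combined replicate 2 (adjusted p from 0.0527 to 0.0971), the ATR term without WT replicate 2, knockout replicate 2 or combined replicate 2 (adjusted p from 0.0612 to 0.0692) and the RAD52 term without siARID1A replicate 1 or combined replicate 2 (adjusted p from 0.0504 to 0.0585). Residual ARID1A was higher in the combined group than in siARID1A by 0.35 (SE 0.112, adjusted p = 0.00214), with an interaction of 0.38 (SE 0.147, adjusted p = 0.0278), and its part in these terms was not tested.

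**Figure D3:**
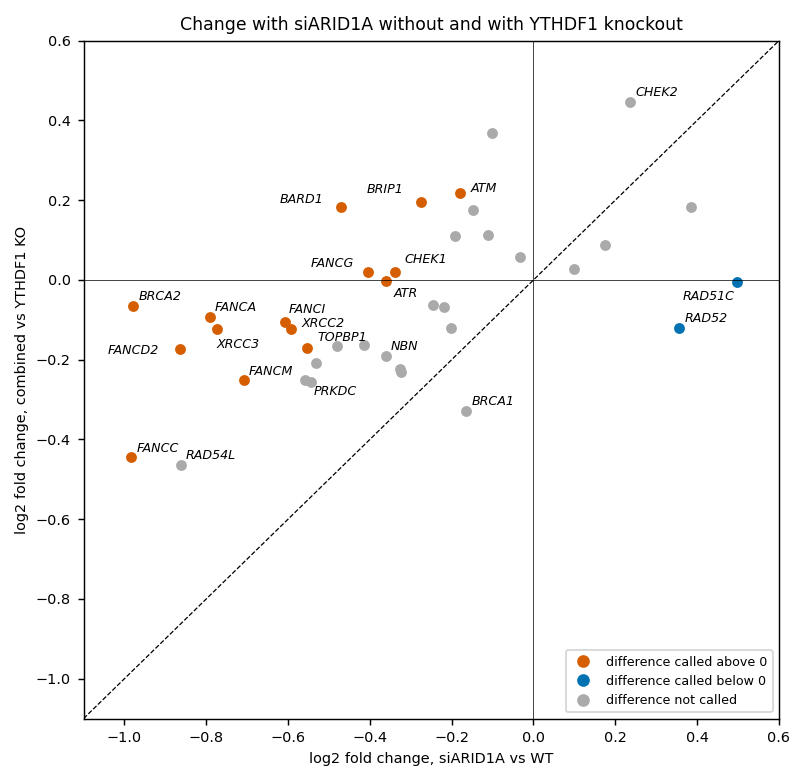
Each point is 1 of the 39 members, with its log2 fold change in siARID1A against WT on the x axis and in the combined group against YTHDF1 KO on the y axis; the dashed line marks equal change. The 15 members with a called positive difference lie above the line on the left, from BRCA2 at -0.98 and -0.07 to ATM at -0.18 and 0.22.

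Comparisons against siARID1A were mostly upward for the members. The combined group exceeded siARID1A for 21 members and was lower for 1, RIF1 (all genes 18.2% and 17.2%, 35.4% in either direction), with a median of 0.25. With the neighbour shift removed the RIF1 call was lost (-0.11, adjusted p = 0.246, neighbours at -0.35). Outside the genes already given, LIG4 stood higher by 0.50 (SE 0.109, adjusted p = 0.00135), BRIP1 by 0.54 (SE 0.127, adjusted p = 3.98e-05) and RBBP8 by 0.38 (SE 0.0813, adjusted p = 0.000791). These comparisons share the siARID1A libraries with the interaction. In the combined group against YTHDF1 KO the count of 6 lower members was 2 without YTHDF1 KO replicate 1, YTHDF1 KO replicate 3 or combined replicate 1, and 3 without YTHDF1 KO replicate 2. The 2 higher members, CHEK2 and ATM, became 1 without YTHDF1 KO replicate 2 or 3 or combined replicate 2 or 3, since the ATM call of 0.22 (SE 0.0567, adjusted p = 0.0324) was lost (adjusted p from 0.0869 to 0.165).

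Neighbouring genes shifted with some of the members. For each member the median change of the 50 nearest tested genes on its chromosome was taken, and the test was repeated with that shift removed from each library. In YTHDF1 KO the neighbours of BARD1 lay at -0.60, and BARD1 itself no longer passed (adjusted p = 0.995). FANCC, with neighbours at -0.40, was left at 0.01 (adjusted p = 0.95), but in siARID1A, with neighbours at -0.53, it kept -0.46 (adjusted p = 0.000146). RIF1 kept -0.23 (adjusted p = 0.00988) beside neighbours at -0.31. On chromosome 17 the neighbours of BRCA1 lay at 0.41 in YTHDF1 KO and 0.38 in the combined group, and BRCA1 was left at 0.31 (adjusted p = 0.00555) and 0.00 (adjusted p = 0.974). In the combined group BARD1 was left at 0.15 (adjusted p = 0.287), XRCC2 at -0.10 (adjusted p = 0.352), XRCC4 at 0.13 (adjusted p = 0.352), RAD51C at 0.14 (adjusted p = 0.258), RAD50 at -0.28 (adjusted p = 0.0687) and BRIP1 at -0.14 (adjusted p = 0.23). In the same comparison MRE11 (-0.30, adjusted p = 0.00558), FANCM (-0.28, adjusted p = 0.0244), FANCI (-0.24, adjusted p = 0.0291) and FANCL (0.28, adjusted p = 0.0172) gained calls. BRIP1, also on chromosome 17, changed from 0.07 to -0.32 (adjusted p = 0.00772) in YTHDF1 KO. XRCC4 was left at 0.11 (adjusted p = 0.481), NBN at 0.17 (adjusted p = 0.0531), RAD52 at 0.24 (adjusted p = 0.0685) and RAD51C at 0.08 (adjusted p = 0.574). In siARID1A the calls of ATM (-0.16, adjusted p = 0.105) and TP53BP1 (-0.15, adjusted p = 0.119) were lost, and BRCA1 gained one at -0.46 (adjusted p = 8.39e-05) beside neighbours at 0.30. PRKDC gained one in YTHDF1 KO at -0.27 (adjusted p = 0.0213). CHEK2 (0.93, adjusted p = 6.48e-09), TP53BP1 (0.45, adjusted p = 2.22e-05) and FANCD2 (-0.59, adjusted p = 2.37e-06) kept their calls. With the shift removed, 5 members were higher and 7 lower in YTHDF1 KO, 4 and 25 in siARID1A, and 13 had an interaction above 0. The cause of these regional shifts was not tested.

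**Figure D4:**
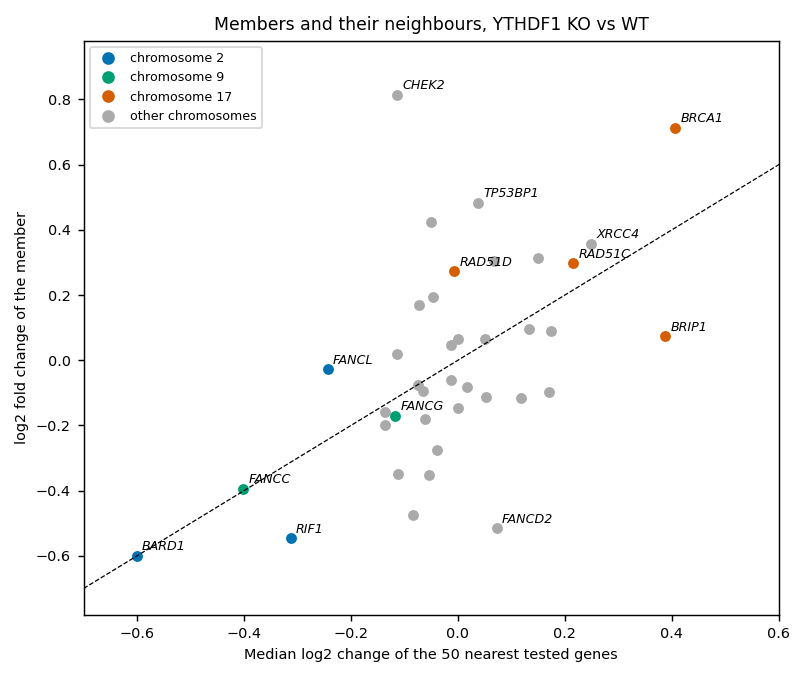
For each of the 39 members, the x axis gives the median log2 change of its 50 nearest tested genes in YTHDF1 KO against WT and the y axis its own log2 fold change; the dashed line marks equal change. BARD1 and FANCC lie on the line, RIF1 and FANCD2 below it, and CHEK2 and BRCA1 above it.

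Other genes of the same pathways, 58 of 59 listed being tested are given by count. In siARID1A 33 fell and 4 rose (median -0.24), in YTHDF1 KO 13 fell and 10 rose (-0.03), in the combined group 21 fell and 8 rose (-0.10), and the interaction was called above 0 for 23. The list was drawn up with results of these libraries known, and the background shares are those given for each comparison. FANCB, a core subunit, fell by 1.20 (SE 0.114, adjusted p = 7.85e-07) in siARID1A, RMI1 of the dissolution complex (chromosome 9) by 1.06 (SE 0.0321, adjusted p = 5.86e-10) and USP1, which removes ubiquitin from FANCD2, by 0.91 (SE 0.0944, adjusted p = 9.01e-10). ERCC4, the crosslink nuclease, rose by 0.76 (SE 0.114, adjusted p = 9.21e-08) in YTHDF1 KO and 0.93 (SE 0.115, adjusted p = 2.14e-09) in the combined group, and its partner ERCC1 by 0.45 (SE 0.114, adjusted p = 4.59e-05) in YTHDF1 KO. The helicase HELQ rose by 0.71 (SE 0.241, adjusted p = 0.00072) in YTHDF1 KO and by 0.50 (SE 0.24, adjusted p = 0.0126) in siARID1A. MDC1, which binds marked histones at breaks, fell by 1.02 (SE 0.219, adjusted p = 7.5e-07) in the combined group, and MUS81, a crossover nuclease, fell by 0.44 (SE 0.0874, adjusted p = 7.81e-05) in YTHDF1 KO. REV1 and PAXX, on chromosomes 2 and 9, fell by 0.87 (SE 0.0635, adjusted p = 6.18e-08) and 0.64 (SE 0.129, adjusted p = 1.59e-05) in YTHDF1 KO. The polymerase subunit REV3L rose by 0.44 (SE 0.117, adjusted p = 0.000633) in siARID1A.

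In siARID1A against WT most genes of DNA replication fell and most p53 targets rose, beside 23.0% and 22.1% of all genes. Of 42 replication and S phase genes, 38 fell and 1 rose in siARID1A (median -0.56), 10 fell and 1 rose within the knockout (-0.15), and the interaction was called above 0 for 26 and below 0 for 1. The histone mRNA binding protein SLBP fell by 1.64 (SE 0.0526, adjusted p = 1.55e-14) and the clamp loader RFC3 by 0.97 (SE 0.0556, adjusted p = 1.55e-10) in siARID1A. Of 25 p53 target genes, 23 rose in siARID1A (median 1.07), 15 rose within the knockout (0.38), and the interaction was called below 0 for 19. Of all genes, 10.9% fell and 12.5% rose within the knockout, and the interaction was called above 0 for 8.87% and below 0 for 8.22%. The interaction subtracts the change in siARID1A, so it tends to the opposite sign by construction. CDKN1A, the inhibitor of cell cycle kinases, rose by 1.54 (SE 0.0818, adjusted p = 1.55e-14) in siARID1A with an interaction of -1.17 (SE 0.0848, adjusted p = 6.8e-09). In YTHDF1 KO 18 replication genes fell and 3 rose, and 7 p53 targets rose and 3 fell, beside 20.8% lower and 19.6% higher of all genes, so the p53 targets were near the background there. In the combined group against WT 27 replication genes fell and 3 rose (median -0.28), and 17 p53 targets rose and 2 fell (0.52), beside 25.9% lower and 25.6% higher of all genes. The part of S phase content in the members' changes was not tested.

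Promoters were examined for the 6 members called lower in all 3 comparisons with WT, which share the WT libraries. With the neighbour shift removed, BARD1 and FANCC each lost calls in these comparisons. RefSeq windows (GRCh38.p14) of 250 bases before to 50 after the start were found for 36 members and for 27305 genes in all. NBN, FANCI and PRKDC were not matched. The words TTTCGCGC, TTTCCCGC, TTTGGCGC and TTTGCCGC, which match the E2F consensus of S phase genes, were searched on both strands. An E2F word stood in 6 of the 36 member windows (16.7%), in TOPBP1, XRCC2, FANCA, FANCC, FANCD2 and XRCC6, against 3.33% of all windows. All 6 are among the 23 windowed members that fell in siARID1A, and 0 of the other 13 held one. The words TTTGAA and TTCGAA, which match the CHR element of mitotic genes, stood in 11.1% of member windows and 16.6% of all. These CHR windows were 4 of the 23 and 0 of the 13. CCAAT stood in 44.4% and 35.7% (11 of the 23 and 5 of the 13). The palindromic NRF1 word stood in 2.78% and 1.36% (1 of the 23 and 0 of the 13). The part of any word in the members' changes was not tested. No search word overlaps another in the sequences shown, a match is a description of letters, and no match says only that these letters are not in the window. The 250 bases before the start are given 5′ to 3′ on the gene's strand for the 4 of the 6 genes that hold a whole word there, with matches in capitals. A word on the other strand appears as its reverse complement.
FANCA (chr16:89816648-89816897, minus strand), with an E2F word at -172 and CCAAT at -33: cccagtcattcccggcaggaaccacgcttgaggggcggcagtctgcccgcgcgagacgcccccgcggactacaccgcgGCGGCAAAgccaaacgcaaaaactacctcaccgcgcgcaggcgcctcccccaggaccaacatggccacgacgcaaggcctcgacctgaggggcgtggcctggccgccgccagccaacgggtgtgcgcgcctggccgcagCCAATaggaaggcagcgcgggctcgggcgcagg
FANCC (chr9:95317710-95317959, minus strand), with E2F words at -172 and -46 and a CHR word at -248: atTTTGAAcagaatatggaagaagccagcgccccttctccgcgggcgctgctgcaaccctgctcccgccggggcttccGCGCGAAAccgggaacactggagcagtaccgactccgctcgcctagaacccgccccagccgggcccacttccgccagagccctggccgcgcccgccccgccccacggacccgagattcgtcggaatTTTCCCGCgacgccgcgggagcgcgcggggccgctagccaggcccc
XRCC3 (chr14:103715452-103715701, minus strand), with CCAAT on either strand at -216, -171, -108, -66 and -33: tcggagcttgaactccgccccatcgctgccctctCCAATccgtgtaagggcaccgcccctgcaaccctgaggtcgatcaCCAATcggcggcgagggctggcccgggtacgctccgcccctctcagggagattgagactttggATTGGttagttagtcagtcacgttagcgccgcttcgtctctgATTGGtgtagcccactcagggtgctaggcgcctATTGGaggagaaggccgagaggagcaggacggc
RIF1 (chr2:151409652-151409901, plus strand), with a CHR word at -204 and CCAAT at -59: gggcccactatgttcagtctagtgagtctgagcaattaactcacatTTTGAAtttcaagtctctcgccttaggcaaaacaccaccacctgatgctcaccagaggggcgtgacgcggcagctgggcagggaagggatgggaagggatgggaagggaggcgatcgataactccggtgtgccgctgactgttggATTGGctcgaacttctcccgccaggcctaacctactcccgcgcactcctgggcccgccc
Positions are of the first base of the word, counted back from -1 just before the start. Only 1 window was searched per gene. That of FANCC lies inside the annotated gene (chr9:95099054-95426796, minus strand), away from its outermost start. FANCD2 held an E2F word that begins at -2 and runs over the start, and BARD1 held none of the words. The 2 E2F-bearing genes shown, FANCA and FANCC, fell by 0.79 and 0.98 in siARID1A, XRCC3 without one by 0.77 and BRCA2, also without one, by 0.98. The neighbours of FANCC lay at -0.53 there. These genes are a pick from the members, and the part of the word in their falls was not tested.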

How the data were processed

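RNA was measured in 12 A549 libraries, 3 per group, made with a stranded kit per the labels' protocols. The submitters' processing notes name Trim Galore 0.6.6, STAR 2.7.0d, featureCounts 2.0.1, edgeR 3.32.1 and GRCh38. Raw counts per Ensembl gene are what the authors deposited. Annotation release and strand setting are not given in the sources used here, so counts of genes whose exons overlap another gene are uncertain. Symbols came from a name table (60261 of 60617 identifiers) and positions and exon lengths from GENCODE 29 (58542).

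Counts were fitted in R 4.3.3 with edgeR 4.0.16 (limma 3.58.1), all 12 libraries and 1 coefficient per group, after filterByExpr (18524 genes tested, 39 of 39 members) with TMM normalization (0.912 to 1.06). Each contrast was tested by robust quasi-likelihood (glmQLFTest), p-values were adjusted by Benjamini-Hochberg over the 18524 genes, and 0.05 was the threshold. SEs use log2 CPM with a prior count of 2. In a simulation of YTHDF1 KO against WT with 18524 genes, 50 genes with a mean above 5 CPM were set to each of -1, -0.5, 0.5 and 1 (log2). Of these, 100% set to -1 or 1 and 84% to 86% set to 0.5 or -0.5 were called. Counts were drawn from the trended dispersion, with far fewer changed genes than in the data. These shares therefore do not give the power for the members. Members, lists and tests were chosen with earlier results of these data known. Library values are given for the 4 largest rises and 6 largest falls against WT (at least 5 CPM, no overlap), members with a called interaction and, beyond that rule, MRE11, RAD50, NBN, PRKDC, XRCC6 and XRCC5. Of the other repair genes, up to 4 per direction with the same floor were eligible. DESeq2 1.42.0 and 20 other settings were tried. P-values measure the spread between these libraries, which may be technical.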

Additional observations from a re-analysis of the deposited data

Results flagged for a closer look

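The change with siARID1A differed between knockout and WT cells, by the interaction term of the edgeR fit, for 17 members (log2, knockout minus WT). The values were BRCA2 0.91, FANCA 0.70, FANCD2 0.69, BARD1 0.65, XRCC3 0.65, FANCC 0.54, FANCI 0.50, BRIP1 0.47, XRCC2 0.47, FANCM 0.46, FANCG 0.42, ATM 0.40, TOPBP1 0.38, ATR 0.36, CHEK1 0.36, RAD52 -0.48 and RAD51C -0.50. Of all genes tested, 17.1% had a called term, against 17 of 39 members. With the shift of neighbouring genes removed, FANCC stood at 0.03 (adjusted p = 0.906), RAD51C at -0.33 (adjusted p = 0.128), FANCM at 0.38 (adjusted p = 0.0829) and ATR at 0.31 (adjusted p = 0.0536).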

How the results depend on the processing

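Of 5694 member values recomputed under 21 settings, 5432 kept their direction and side of the threshold, 164 lost the call, 92 gained one and 6 turned. The 6 that turned did so with the neighbour shift removed: FANCC (0.0087) and BRIP1 (-0.32) in YTHDF1 KO, BARD1 (0.15) and BRIP1 (-0.14) in the combined group against WT, and BARD1 (0.55) and RIF1 (0.11) in YTHDF1 KO against siARID1A. That setting also gave 5 higher members in YTHDF1 KO (9 as reported), 10 lower in the combined group against YTHDF1 KO (6), 2 lower in YTHDF1 KO against siARID1A (1) and 1 lower interaction (2). TMM factors without chromosomes 2 and 9 gave 11 lower members in YTHDF1 KO (7), 2 lower in the combined group against siARID1A (1) and 3 lower in YTHDF1 KO against siARID1A (1). Library totals gave 14 higher in the combined group against WT (9) and 2 lower against YTHDF1 KO (6). They moved the median of all genes by up to 0.13 and the share of higher calls from 48.5% to 61.2% in YTHDF1 KO, 49.7% to 63.4% in the combined group against WT, 53.5% to 63.5% against YTHDF1 KO and 51.3% to 62.2% against siARID1A. Only the groups compared gave 5 higher and 11 lower against YTHDF1 KO (2 and 6), 2 lower against siARID1A (1) and 2 lower in YTHDF1 KO against siARID1A (1). No filter gave 1 higher against YTHDF1 KO (2). A minimum of 1 CPM in 3 libraries gave 2 lower against siARID1A and 3 lower in YTHDF1 KO against siARID1A, and DESeq2 2 for the latter. Leaving out 1 library gave 1 to 2 higher and 2 to 7 lower members in the combined group against YTHDF1 KO, with 1327 (without combined replicate 1) to 2483 of all genes lower (2016). It gave 1 to 2 lower against siARID1A, 1 to 2 lower in YTHDF1 KO against siARID1A and 1 to 2 lower interactions. The cause was not tested. The replicate block took 3 member calls and added 0, with 15 higher and 2 lower interactions and 25 lower members in siARID1A, and same-numbered libraries did not deviate together (correlations of -0.042 to 0.033 over 18 pairs). The interaction uses all 4 groups, so a fit of only the groups compared was not run for it.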
